A study of Mus musculus with 6 samples.

Results

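*Foxa2*, *Sox17*, *Pax8*, *Cxcl15*, *Lif*, *Prss28* and *Prss29* were followed as genes of the uterine gland in endometriosis-like lesions of mice. They were chosen by name, as transcription factors of the Müllerian duct and its glands and as products that glands secrete, and all 7 are among the 41786 gene symbols counted. The lesions grew from uterine tissue of 6-week-old GFP-positive C57BL/6 donors, stitched onto the inner body wall of wild-type C57BL/6 females aged 8 weeks. All recipients carried such a graft, and after 3 days they received either vehicle or niclosamide, an oral anthelmintic drug, at 200 mg/kg daily for 3 weeks. Lesions were collected in diestrus, and RNA was sequenced in 3 vehicle and 3 niclosamide libraries. Vehicle 1 holds pooled RNA of 4 mice, whereas each of the other libraries came from 1 mouse, so the vehicle group has 1 pooled value and 2 single animals. The comparison asked how the drug affects the growth and progression of the lesions.

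Uterine glands are epithelial tubes that bud from the luminal epithelium into the stroma, and their secretions are needed for implantation of the embryo. FOXA2 is the transcription factor that marks glandular as opposed to luminal epithelium in the adult mouse uterus and is needed for glands to form. LIF is a cytokine of the interleukin-6 family that glands release before implantation under FOXA2, while PRSS28, PRSS29 and CXCL15 are secreted gland products. SOX17 and PAX8 are less restricted: SOX17 is found in Müllerian epithelium and also in endothelium, and PAX8 in all Müllerian epithelium, kidney and thyroid.

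Libraries held 27797121 to 34797000 counted reads. A count of 3, the 1-sided 95% upper limit for a count of 0, corresponded to 0.0824 to 0.109 CPM (the read count scaled to library size). This limit and all intervals given here cover counting error only. The labelled tissue was checked against marker lists. Epithelial genes were present but uneven, with list means of 5.97 to 6.97 log2 CPM in vehicle libraries and of 4.72, 7.29 and 5.51 in niclosamide 1 to 3 (15 of 16 genes had enough counts; *Prom2* was near 0). Skeletal muscle genes of the body wall were also present, at 8.02 to 9.32 with vehicle and 10.87, 5.64 and 9.23 in niclosamide 1 to 3. Markers of lung, thyroid, kidney, pancreas and liver, where several of the gland genes are also known, summed to 0.824 to 3.88 CPM over 12 genes, with *Sftpb*, *Prss1* and *Ctrb1* at 0 in every library. In such bulk tissue, fewer cells of a type and less RNA per cell cannot be told apart.

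The gland genes separated into those with reads in every library and those near or below the detection limit in most libraries. Per kilobase of counted exon, *Pax8* and *Sox17* had the highest vehicle levels, 8.25 and 7.25 CPM per kb, and their library values overlapped (6.65 to 9.14 and 6.55 to 8.23). *Lif* came next at 2.71 CPM per kb, then *Foxa2* at 1.08, and neither overlapped with its neighbours in this order. *Cxcl15* had 0.0215 CPM per kb, and *Prss28* and *Prss29* had no count in any vehicle library. The order differed among niclosamide libraries. *Sox17* led in niclosamide 1 and 3 (3.33 and 14.5 CPM per kb) and *Pax8* in niclosamide 2 (14.6). In niclosamide 3, *Prss29* at 1.61 CPM per kb stood above *Lif* at 0.671 and *Foxa2* at 0.472.

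**Figure D1:**
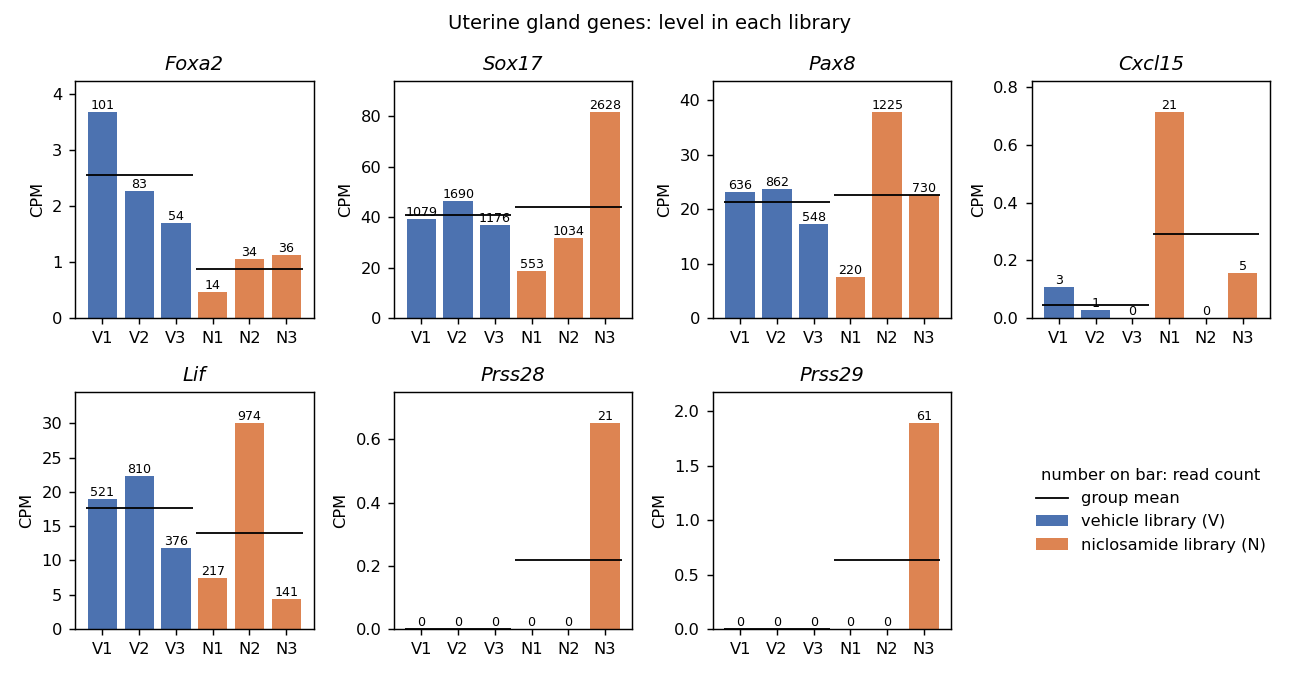
Level of each gland gene in CPM in the 3 vehicle (V) and 3 niclosamide (N) libraries, with the read count on each bar and the group mean as a line. *Foxa2* is lower in all niclosamide libraries than in any vehicle library, *Sox17* is highest in N3, *Pax8* and *Lif* in N2, and *Prss28* and *Prss29* have counts in N3 alone.

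*Foxa2*, *Sox17*, *Pax8* and *Lif*, 4 of the 7, passed the filter on low counts and entered the test across 17364 genes. In edgeR's quasi-likelihood fit, 0 of these 4 differed between niclosamide and vehicle at a Benjamini-Hochberg adjusted p under 0.05, where 0 of 17364 genes (0%) did. At an unadjusted p under 0.05 there was 1 of 4, *Foxa2*, against 6.92% of all genes tested. Of all genes, 3.55% were lower and 3.37% higher with niclosamide by that rule. DESeq2 called 0 of the 5 gland genes to which it gave an adjusted p, against 1.01% of its genes, and limma-voom called 0 of 4. The median log2 fold change of the 4 genes was -0.13, beside 0.02 over all genes tested.

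*Foxa2* (chromosome 2, 148042877 to 148046969) was the gland gene with the most regular difference. The vehicle libraries held 101, 83 and 54 of its reads, and niclosamide 1 to 3 held 14, 34 and 36. These correspond to 3.68, 2.28 and 1.70 CPM with vehicle and to 0.476, 1.05 and 1.12 CPM with niclosamide. Every niclosamide library lay below every vehicle library, which was so in 6.37% of all genes tested (12.3% in either direction). The vehicle mean was 2.55 CPM ± 1.02 (SD, n = 3) and the niclosamide mean 0.882 ± 0.354. The log2 fold change was -1.52 ± 0.47 (SE), or 2.88 times lower. This did not pass the threshold (edgeR quasi-likelihood, unadjusted p = 0.016, Benjamini-Hochberg adjusted p = 0.62). Over all alternatives the adjusted p ranged from 0.12 by DESeq2 to 1. The counts are low. The 95% Poisson interval of the lowest vehicle count was 40.6 to 70.5 reads, above that of niclosamide 1 (7.65 to 23.5) but overlapping those of niclosamide 2 (23.6 to 47.5) and niclosamide 3 (25.2 to 49.8).

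The groups overlapped for the other FOXA genes. *Foxa1*, whose protein binds the same motif as FOXA2, had 3.5 to 3.9 CPM in the vehicle libraries, and 1.43, 15.8 and 1.27 CPM in niclosamide 1 to 3. The single high value was that of niclosamide 2, while the other niclosamide libraries lay below the vehicle range (log2 fold change 0.74 ± 0.98 SE, edgeR adjusted p = 0.97). *Foxa3*, known from liver and gut, had 2 reads in niclosamide 2 and 0 in all other libraries.

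Since epithelial gene levels varied between lesions, each gland gene was also set against the mean of the 15 epithelial genes in its own library. On this log2 scale *Foxa2* lay between -5.24 and -5.07 in the vehicle libraries, a spread of 0.09 (SD, n = 3). Niclosamide 1, 2 and 3 had -5.61, -7.13 and -5.27, all below the vehicle range, though niclosamide 3 by little. The group difference was -0.85 (two-sided exact permutation p = 0.10, the smallest p that 3 against 3 allows). It was -0.29 without niclosamide 2, the library with the most epithelial signal. With the epithelial mean as a covariate in the edgeR fit, the log2 fold change of *Foxa2* was -1.24 ± 0.45 (SE) with an adjusted p of 0.47. Among marker lists of other cells, those of T and NK cells, smooth muscle and neutrophils also parted the groups, the last by little. The list means of macrophages, endometrial stroma, mast cells, mesothelium, adipocytes, skeletal muscle and endothelium overlapped between the groups. T and NK cell genes had list means of 4.35 to 4.58 log2 CPM with vehicle and 5.19 to 5.69 with niclosamide, with 11 of 12 genes at an unadjusted p under 0.05, all higher. Smooth muscle genes had 8.52 to 9.02 and 6.80 to 8.32 (7 of 9, all lower), and neutrophil genes 4.50 to 5.63 and 3.69 to 4.48 (6 of 10, all lower). Over all genes tested, 3.37% were higher and 3.55% lower at that unadjusted threshold. By edgeR 0 genes of these 3 lists passed the adjusted threshold. DESeq2 called 4 T and NK cell genes, all higher (*Cd3g*, *Klrk1*, *Klrd1* and *Gzmb*), and 4 neutrophil genes, all lower (*Cxcr2*, *Trem1*, *Il1r2* and *Mmp9*), but 0 smooth muscle genes, and these 8 were named after their values were seen. The part of these cell types in the *Foxa2* values was not tested.

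**Figure D2:**
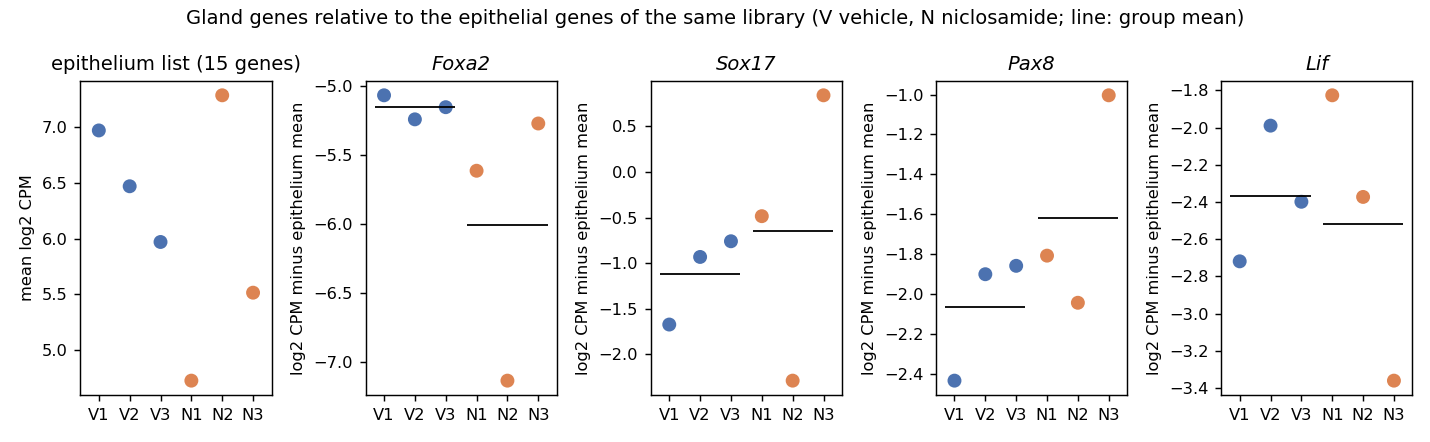
The first panel shows the mean log2 CPM of 15 epithelial genes in each library, and the other panels each tested gland gene as log2 CPM minus that mean, with group means as lines. *Foxa2* is tightly grouped near -5.15 in vehicle libraries and lower in niclosamide libraries, furthest in N2, while *Sox17* is highest in N3 and lowest in N2.

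*Sox17* (chromosome 1, 4490928 to 4497388) stood at 39.3, 46.4 and 37.0 CPM in the vehicle libraries. In niclosamide 1 to 3 it stood at 18.8, 32.0 and 81.7 CPM. Niclosamide 1 and 2 lay below the vehicle range and niclosamide 3 far above it. The means were therefore close, 40.9 CPM ± 4.92 (SD, n = 3) and 44.2 ± 33.2, with a log2 fold change of 0.11 ± 0.51 (SE, edgeR adjusted p = 0.98). Without niclosamide 3 the niclosamide mean was 25.4 CPM and the log2 fold change turned to -0.67 (adjusted p = 0.45). Endothelium, the other source of *Sox17*, gave list means of 5.44 to 6.03 log2 CPM with vehicle and of 5.6, 5.22 and 5.72 in niclosamide 1 to 3, and its part in the *Sox17* values was not tested. *Sox18*, a close relative of *Sox17* in endothelium, had 25.9 to 40.0 CPM with vehicle and 28.8, 19.8 and 32.7 CPM in niclosamide 1 to 3. *Sox7*, the other member of this SOX group, had 25.6 to 47.1 CPM with vehicle and 10.2, 39.8 and 11.2 CPM with niclosamide, lowest in niclosamide 1 like the epithelial list. Relative to epithelial genes, *Sox17* was 0.84 log2 above their mean in niclosamide 3 and -2.29 in niclosamide 2, against -1.67 to -0.76 with vehicle (difference 0.48, exact permutation p = 0.70).

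*Pax8* (chromosome 2) had 23.2, 23.7 and 17.2 CPM with vehicle and 7.48, 37.9 and 22.7 CPM in niclosamide 1 to 3. The means were 21.4 CPM ± 3.59 (SD, n = 3) and 22.7 ± 15.2, with a log2 fold change of 0.09 ± 0.54 (SE, edgeR adjusted p = 0.99). Its low in niclosamide 1 and high in niclosamide 2 are also the extremes of the epithelial list. Set against that list, *Pax8* lay between -2.43 and -1.86 with vehicle and at -1.81, -2.04 and -1.0 in niclosamide 1 to 3 (difference 0.45, exact permutation p = 0.40). Without niclosamide 2 the log2 fold change was -0.51, without niclosamide 1 it was 0.50, and without vehicle 3 it was -0.04. *Pax2*, a PAX gene of the Müllerian duct, had 6.26 to 11.4 CPM with vehicle and 2.48, 9.98 and 6.59 CPM with niclosamide. *Pax8* exons overlap a predicted gene on the opposite strand by 87 bases, and the counting used strand.

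*Lif* (chromosome 11, 4257568 to 4272514) had 19.0, 22.3 and 11.8 CPM with vehicle and 7.38, 30.1 and 4.39 CPM in niclosamide 1 to 3. Niclosamide 1 and 3 lay below every vehicle library and niclosamide 2 above all of them. The means were 17.7 CPM ± 5.34 (SD, n = 3) and 14.0 ± 14.1, and the log2 fold change was -0.34 ± 0.71 (SE, edgeR adjusted p = 0.97). Without niclosamide 2 the niclosamide mean was 5.88 CPM and the log2 fold change -1.61 (adjusted p = 0.26), and without niclosamide 3 it turned to 0.10. Relative to epithelial genes, *Lif* had -2.72 to -1.99 with vehicle and -1.83, -2.37 and -3.36 in niclosamide 1 to 3, so that niclosamide 2 lay inside the vehicle range and niclosamide 3 remained the lowest library (difference -0.15, exact permutation p = 0.90).

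**Figure D3:**
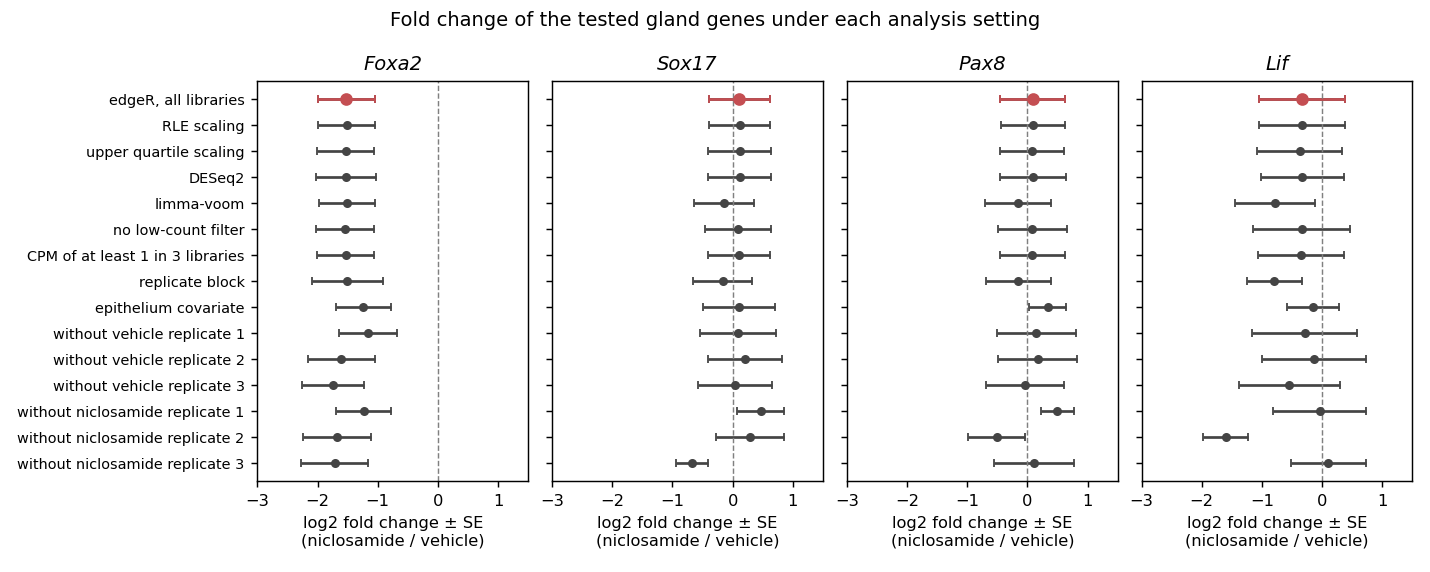
Log2 fold change (niclosamide over vehicle) with its SE for the 4 tested gland genes under each scaling, tool, filter and covariate, and with each library left out. *Foxa2* stays between -1.74 and -1.17, while *Sox17*, *Pax8* and *Lif* cross 0 when single niclosamide libraries are left out.

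For the receptor of LIF, *Lifr* had 56.3 to 61.0 CPM with vehicle and 57.3 to 68.0 CPM with niclosamide. *Il6st*, which encodes the shared chain gp130, had 438 to 499 CPM with vehicle and 360 to 415 CPM with niclosamide, without overlap (log2 fold change -0.32 ± 0.15 SE, edgeR adjusted p = 0.76). Of the 10 genes listed for this pathway, 4 had a log2 fold change above 0 and 6 below, with a median of -0.14, and 0 passed the threshold. The groups did not overlap in 2 of the 10, beside 12.3% of all genes tested. Besides *Il6st* this was *Jak1*, which was higher with niclosamide (348 to 452 CPM, against 322 to 344 CPM with vehicle).

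*Prss28* and *Prss29* encode the implantation serine proteases, tryptase-like enzymes of the glands that lie next to each other on chromosome 17. *Prss28* (25308646 to 25311876) had 21 reads in niclosamide 3 and 0 in each of the other 5 libraries. *Prss29* (25318654 to 25322684) had 61 reads in niclosamide 3 and likewise 0 in all others. In CPM these are 0.653 and 1.90, at least 5.97-fold and 17.3-fold above the limit of 3 reads per library in any of the other libraries. The 95% Poisson intervals of the counts are 13.0 to 32.1 and 46.7 to 78.4. Both genes missed the filter on low counts. When fitted without it they were not called (edgeR adjusted p = 0.86 for both), and the difference is that of 1 animal, not of the drug group. The transcripts were 68.4% identical over 1121 aligned bases in the GENCODE annotation, with a longest shared run of 27 bases. The counter's settings left out reads aligned to several places.

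The starts of these genes are shown because they were detected in the same single library. The RefSeq promoter windows (GRCm38.p6, plus strand, chr17:25308396-25308695 and chr17:25318404-25318703) run from 250 bases before to 50 after each start. Capitals mark every exact run of at least 12 bases that both windows hold.
Prss28: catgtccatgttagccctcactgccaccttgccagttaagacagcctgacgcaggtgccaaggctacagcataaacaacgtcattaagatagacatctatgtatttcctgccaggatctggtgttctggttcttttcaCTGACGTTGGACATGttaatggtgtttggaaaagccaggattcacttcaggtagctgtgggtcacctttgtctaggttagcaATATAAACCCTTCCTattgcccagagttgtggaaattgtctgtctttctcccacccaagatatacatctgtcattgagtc
Prss29: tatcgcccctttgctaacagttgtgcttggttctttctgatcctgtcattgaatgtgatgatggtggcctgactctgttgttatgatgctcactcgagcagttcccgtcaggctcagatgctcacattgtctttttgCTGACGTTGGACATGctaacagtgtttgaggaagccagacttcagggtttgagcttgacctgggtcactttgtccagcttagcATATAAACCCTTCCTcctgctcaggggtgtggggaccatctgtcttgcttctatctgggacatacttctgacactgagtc
The windows were 67.4% identical over 291 aligned bases. The 2 shared runs have 15 bases each. The first begins 112 bases before the start in *Prss28* and 113 in *Prss29*, and the second begins 30 bases before the start in both and contains TATAAA, the core of a TATA box. Each run occurs in 2 of the 32851 promoter windows of the table, those of *Prss28* and *Prss29*. TATAAA between 45 and 16 bases before the start occurs in 2.14% of all windows. It is also there in the *Cxcl15* window, but not in those of *Foxa2*, *Pax8* or *Lif*. A forkhead motif (TGTTTAC, with TGTTTAT, also TGTTTGC and also TGTTTGT accepted, on either strand) was found once in the *Prss28* window and in 1 of 3 *Foxa2* windows. It was not found in those of *Prss29*, *Cxcl15*, *Lif* or *Pax8*, and 17.7% of all windows hold it. The table gave windows for 6 of the 7 gland genes, *Sox17* being without one.

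Neighbouring protease genes within 60.6 kb had reads in other libraries too. *Prss34*, a serine protease gene 10.3 kb before *Prss28*, had 2 to 15 reads with vehicle and 5, 14 and 5 with niclosamide. *Tpsab1* and *Tpsb2*, mast cell tryptase genes 34.6 and 57.7 kb after it, had 2 and 100 reads in niclosamide 3, against 0 to 5 and 74 to 192 with vehicle. *Prss22*, *Prss30* and *Prss32*, epithelial protease genes farther off on chromosome 17, had 116, 35 and 44 reads in niclosamide 3, below the 373 to 1019, 49 to 50 and 127 to 185 reads of vehicle libraries. They had 102, 55 and 69 reads in niclosamide 1 and 905, 72 and 723 in niclosamide 2. *Prss33*, in that same stretch, had 1 read in niclosamide 3 and 0 elsewhere.

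**Figure D4:**
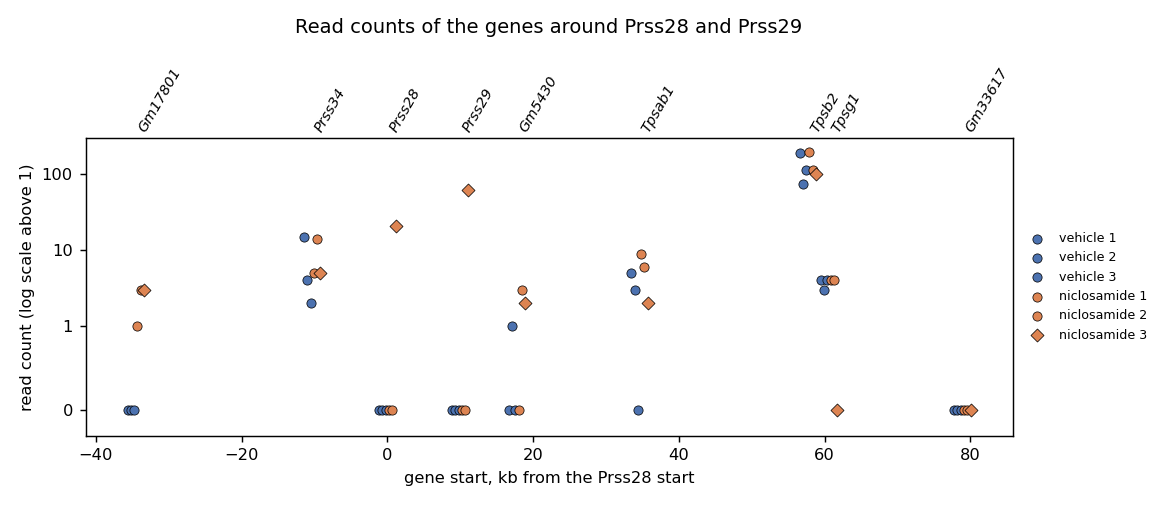
Read counts in each library of the genes around *Prss28*, placed by the distance of their start from that of *Prss28* in kb, on an axis that is logarithmic above 1. Diamonds mark niclosamide 3, which has 21 and 61 reads for *Prss28* and *Prss29* where all other libraries have 0, and lies among the other libraries or below them for *Prss34*, *Tpsab1*, *Tpsb2* and *Tpsg1*.

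Symbols counted in a single library were rare. With at least 20 reads in 1 library and 0 in the other 5, there were 5 symbols in niclosamide 3 and 0 in each of the other libraries. The 5 were *Prss28*, *Prss29*, *Fga* (a fibrinogen chain gene, 29 reads), *Olah* (a thioesterase of fatty acid synthesis, 38) and *Pga5* (a pepsinogen gene, 24), the last 3 being named after their values were seen.

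*Cxcl15* (chromosome 5, 90794534 to 90803067), a chemokine gene known from lung and uterine glands, was near the limit of detection in all libraries but niclosamide 1. It had 3, 1 and 0 reads in vehicle 1 to 3 and 21, 0 and 5 reads in niclosamide 1 to 3. The library with 21 reads (0.714 CPM, 95% Poisson interval of the count 13.0 to 32.1) was niclosamide 1, the one with the fewest epithelial and the most skeletal muscle transcripts; the part of these tissues was not tested. *Sftpc* and *Scgb1a1*, lung genes, had 1 and 8 reads there. *Cxcl15* missed the filter, and without it was not called (edgeR adjusted p = 0.86). Its exons are annotated both on chromosome 5 and on a further scaffold, as for 1540 symbols, and how many reads this cost was not tested.

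Niclosamide 3, the library with *Prss28* and *Prss29* and with the highest *Sox17*, also stood apart in genes linked to SOX17 and Hedgehog signalling. *Ihh*, the epithelial Hedgehog ligand that is induced by progesterone and needs SOX17 in the mouse uterus, had 8 to 15 reads with vehicle and 9, 2 and 958 reads in niclosamide 1 to 3. *Ptch1*, the Hedgehog receptor and itself a target, had 29.3 to 32.1 CPM with vehicle and 30.2, 28.6 and 151 CPM with niclosamide. The target genes *Gli1* and *Hhip* had 71.5 and 5.44 CPM in niclosamide 3 against at most 16.2 and 0.442 CPM elsewhere. *Ptch1*, *Gli1* and *Hhip* were named after their values were seen, and this list, with *Ihh*, was chosen with earlier results of these data known. A link of these genes to the *Sox17* level was not tested. Of the 10 tested genes of this list 0 were called, 4 had a log2 fold change above 0 and 6 below (median -0.26), while niclosamide 1 and 2 lay near or under the vehicle libraries. The progesterone receptor gene *Pgr* had 129, 309 and 181 CPM with vehicle and 62.6, 108 and 130 CPM in niclosamide 1 to 3, so that niclosamide 3 was the highest of its group and just above the lowest vehicle library. Its log2 fold change was -1.04 ± 0.40 (SE, edgeR unadjusted p = 0.038, adjusted p = 0.68). The estrogen receptor gene *Esr1* had 229 to 360 CPM with vehicle and 128, 205.3 and 268 CPM with niclosamide, again highest in niclosamide 3 within its group. *Spink3*, a protease inhibitor gene of uterine glands, had 30 reads in niclosamide 3, 1 in each of the other niclosamide libraries and 0 with vehicle, and was also named after its values were seen.

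**Figure D5:**
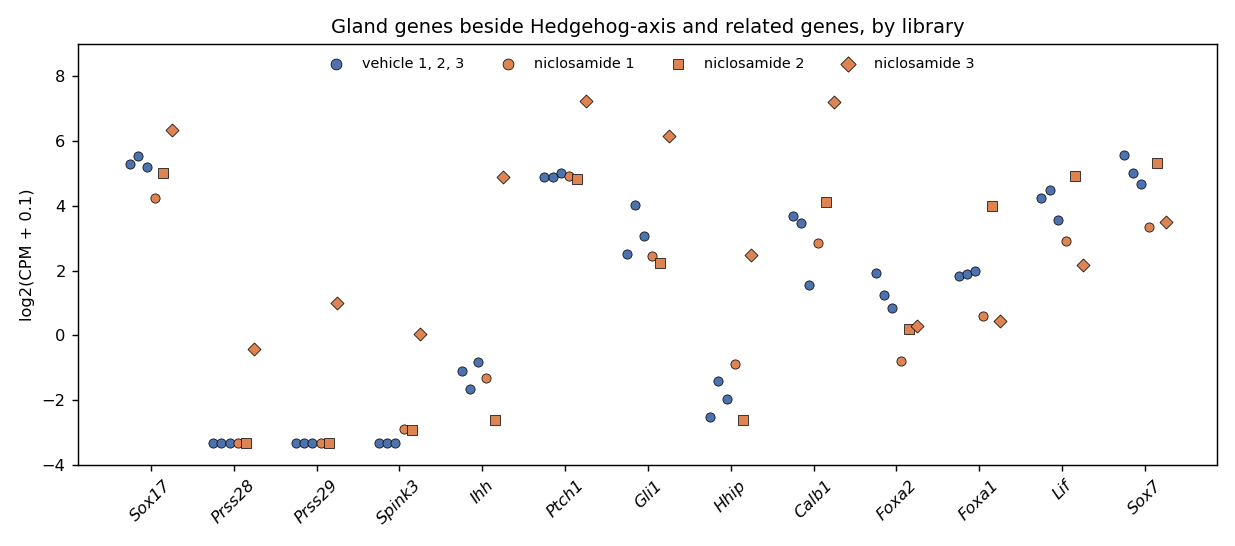
Level of gland genes and related genes in each library as log2(CPM + 0.1), with vehicle libraries in blue and niclosamide libraries in orange by marker shape. Niclosamide 3 (diamonds) is the highest library for *Sox17*, *Prss28*, *Prss29*, *Spink3*, *Ihh*, *Ptch1*, *Gli1*, *Hhip* and *Calb1* and the lowest for *Lif* and *Foxa1*.

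Other gland and duct genes were summarised by list, beside 8031 of 17364 genes below 0 among all genes tested and 14 of 15 in the epithelial list, whose part in these counts was not tested. Of 13 tested further gland markers and products 0 were called, with 3 above and 10 below 0 and a median log2 fold change of -0.34. The abundant secretory genes *Ltf*, for the iron-binding protein lactoferrin, and *Lcn2* had 1996 to 4548 and 866 to 1220 CPM with vehicle. In niclosamide 1 to 3 they had 329, 3306 and 1026 CPM and 142, 1966 and 375 CPM. Within the niclosamide group both were highest in niclosamide 2 like the epithelial list, but over all libraries *Ltf* was highest in vehicle 1 at 4548 CPM. *Aldh1a1*, a retinaldehyde dehydrogenase of glands, had 69.7 to 91.8 CPM with vehicle and 74.6, 76.9 and 34.9 CPM with niclosamide. Müllerian duct transcription factors gave 0 calls among 12 tested, with 10 below 0 and a median of -0.14. In that list *Hoxa10* and *Hoxa11*, positional factors of the uterus, had 113 to 206 and 65.5 to 119 CPM with vehicle. In niclosamide 1 to 3 they had 55.2, 62.5 and 334 CPM and 25.3, 46.6 and 217 CPM. Niclosamide 1 and 2 thus lay below and niclosamide 3 above the vehicle range, with log2 fold changes of -0.07 and 0.04.

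Genes of the Wnt pathway, which drives gland formation, had a median log2 fold change of -0.41 over 16 tested (0.02 over all genes, -0.22 over the epithelial list). Of these, 13 were below 0 and 0 were called. The receptor gene *Fzd10* had 20.2, 6.57 and 12.5 CPM with vehicle and 2.52, 5.04 and 4.63 CPM with niclosamide (log2 fold change -1.68 ± 0.48 SE, edgeR adjusted p = 0.60). *Axin2*, a Wnt target and feedback inhibitor, had 30.2 to 56.3 and 20.5 to 28.2 CPM, also without overlap (-0.67 ± 0.27 SE, edgeR adjusted p = 0.72). These were the 2 of 16 Wnt genes without overlap, a share near the 12.3% of all genes tested (6.37% lower with niclosamide). *Wnt7a*, the epithelial ligand needed for glands, had 21.7 to 54.9 CPM with vehicle and 6.59, 30.9 and 7.59 CPM with niclosamide.

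The library profiles of the 4 tested gland genes were not alike. As a measure, the root mean square difference of centred log2 CPM over the 6 libraries was taken, against 14786 other genes. *Sox17* and *Lif* were furthest apart at 1.27 log2, and *Sox17* and *Pax8* closest at 0.64. The 3 nearest genes were *Vwa2*, *Nudt10* and *St6galnac5* for *Foxa2* (0.24 to 0.29 log2), *Npas3*, *Wnk4* and *Ano1* for *Sox17* (0.08 to 0.12), *Kcnk1*, *Ap3b2* and *Crb3* for *Pax8* (0.11 to 0.15) and *Ppbp*, *Myh14* and *Fam83b* for *Lif* (0.17 to 0.18). *Ano1*, for example, had 35.3 to 49.0 CPM with vehicle and 17.3, 31.4 and 66.1 CPM in niclosamide 1 to 3, and *Vwa2* had 14.9 to 25.8 CPM and 5.34, 10.7 and 11.9 CPM.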

How the data were processed

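RNA-seq read counts of 3 vehicle and 3 niclosamide lesion libraries were used. The deposited tables give raw counts, 1 whole number for each symbol. Exon reads were counted by the authors, per the file headers, with featureCounts 1.4.6-p4, reverse-stranded, on STAR alignments with the GRCm38.p3 annotation, and set no option to keep multi-mapping or multi-overlapping reads. Per the submitters' processing notes, Trimmomatic 0.33 and STAR 2.4.2a were used; read length is not given in the sources used here. Genes were filtered with filterByExpr (minimum count 10, minimum total 15), scaled by TMM and tested with edgeR 4.0.16 in R 4.3.3 (robust quasi-likelihood, group only), with Benjamini-Hochberg adjustment over all genes and a threshold of 0.05. SEs were derived from each fold change and its F statistic. CPM use TMM-scaled library sizes, and log2 CPM a prior count of 2. Epithelium-relative values were compared by two-sided exact permutation. Alternatives were RLE and upper quartile scaling, DESeq2 1.42.0, limma-voom (limma 3.58.1), other filters, a threshold of 0.10, an epithelium covariate, a replicate block and leaving out each library. The procedure was run on simulated counts with planted changes and the same spread for all genes. This checked the code and does not measure its power in these lesions. The members and lists were chosen with earlier results of these data known, and 1 gene of the Hedgehog list is not reported here. Named genes were the 7 gland genes, 9 fixed relatives, counted neighbours of the protease genes, list members with an unadjusted p under 0.05 (at most 4) or the 2 highest means, and the 3 nearest profiles; not all are reported. Genes named in addition for illustration (such as *Pax2*, *Aldh1a1* and *Wnt7a*) were chosen after their values were seen. The labels do not say whether lesions of different mice shared a donor, so p-values measure the spread between these libraries.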

Additional observations from a re-analysis of the deposited data

How the results depend on the processing

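edgeR called 0 of 17364 genes. DESeq2 called 178 and a fit without a low-count filter called 1, and 0 were called under every other alternative run. Of the gland genes, 0 were called under any alternative. *Foxa2* kept a negative log2 fold change in all 14 alternatives, from -1.74 to -1.17. For *Sox17* the direction turned with limma-voom (-0.15), with the replicate block (-0.17) and without niclosamide 3 (range over libraries left out -0.67 to 0.47). For *Pax8* it turned with limma-voom (-0.16), with the replicate block (-0.15) and without vehicle 3 (-0.04) or niclosamide 2 (range -0.51 to 0.50). For *Lif* it turned without niclosamide 3 (range -1.61 to 0.10). Relative to epithelium, leaving out libraries gave -0.26 to 1.30 for *Sox17* and -0.50 to 0.27 for *Lif*, which turned without vehicle 2 (0.04) or niclosamide 3. The cause of these turns was not tested beyond the libraries named. No pairing by replicate number was seen. Deviations from the group means correlated at -0.09, -0.09 and 0.27 between same-numbered libraries, and at -0.36 to 0.36 between differently numbered ones. So few libraries cannot exclude a pairing. *Cxcl15*, *Prss28* and *Prss29* had 0 to 61 reads per library, most or all of them in 1 niclosamide library. No group difference was called for them.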

Other observations

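Some genes of the luminal epithelium list stood apart in niclosamide 3. Of the 8 tested genes of this list, 5 had a log2 fold change between the groups above 0 and 3 below, and 0 were called. *Wnt7a*, which is also in this list, had 7.59 CPM in niclosamide 3, below every vehicle library. *Tppp3* had 81.7 CPM there, against 50.8 to 78.9 CPM with vehicle. *Fgf9* and *Krt13* had 6.87 and 0.156 CPM there, beside 4.23 to 6.31 and 0.157 to 0.729 CPM with vehicle. *Lpar3* and *Areg* had 21.4 and 1.96 CPM there and at most 5.03 and 0.587 CPM elsewhere. *Calb1*, for the calcium-binding protein calbindin, had 2.83 to 12.7 CPM with vehicle and 7.14, 17.1 and 146 CPM in niclosamide 1 to 3. *Il13ra2*, a decoy receptor gene for interleukin-13, had at most 0.934 CPM elsewhere and 29.4 CPM in niclosamide 3. In the oviduct list, *Ovgp1*, the oviduct glycoprotein gene, had 20.9 CPM in niclosamide 3 and at most 5.78 CPM elsewhere. The ciliated cell gene *Foxj1* of that list had 2.15 CPM in niclosamide 3 and 3.10 to 3.68 CPM with vehicle. *Fgf9*, *Krt13*, *Lpar3*, *Areg*, *Il13ra2*, *Ovgp1* and *Foxj1* were named after their values were seen.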
